A study of Mus musculus with 33 samples.

Results

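The genes examined here encode proteins through which a cell takes up fatty acids and lipoprotein particles: the fatty acid translocase Cd36, the fatty acid transport proteins Slc27a1, Slc27a2, Slc27a4 and Slc27a5, lipoprotein lipase (Lpl) and the very low density lipoprotein receptor (Vldlr). They were taken as the probe sets of the array whose platform gene symbol was one of these 7, which gave 16 of the 45037 probe sets that are not array controls. All 7 genes had at least 1 probe set past the filter on dim values, and so stand among the 9005 genes tested, but only 14 of the 16 probe sets did. The series measured liver RNA of 33 male C57BL/6J mice aged 17 weeks on Affymetrix mouse genome arrays, with 1 array per mouse. For 2 weeks 12 mice received fenofibrate, an agonist of the nuclear receptor PPARα used to lower blood lipids, at 0.03% by weight in a diet with oleic acid-rich sunflower oil at 7% of energy. Another 11 mice received fish oil at 7% of energy, with 23.1% EPA and 21.1% DHA, in place of the sunflower oil. The 10 control mice received the sunflower oil diet alone (81.3% oleic acid in the oil). All mice were fasted during the morning before they were killed, and they were housed in pairs, so that animals of 1 cage are not fully independent.

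Long-chain fatty acids reach the liver as free acids bound to albumin and inside lipoprotein particles. CD36 binds fatty acids and several lipoproteins at the cell surface. The FATP proteins encoded by Slc27a genes join fatty acids to coenzyme A, which traps them inside the cell. Lipoprotein lipase hydrolyses the triglyceride of circulating particles, and the VLDL receptor binds such particles and is able to take them up. In adult liver Lpl and Vldlr are normally low, and their main sites are heart, muscle and fat. Slc27a2 and Slc27a5 are the abundant hepatocyte members of their family, and Slc27a5 also activates bile acids. PPARα acts as a heterodimer with RXR on direct repeats of a hexamer with a single base between them.

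Each value below is a log2 expression value per probe set, as deposited, on a scale that ran from 0.484 to 15.6 over the whole table. A difference is one between diet means ± SE from a limma model of all 33 arrays, with Benjamini-Hochberg adjustment over all 9005 genes, and calls were made where the adjusted p was under 0.05. The filter kept probe sets that reached a log2 value of 4 on 10 or more arrays, and the brightest probe set past it stood for its gene. Values of different probe sets depend on their probes, so no level is compared between genes as an amount of RNA.

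The promoter windows of the members are shown here because fenofibrate acts through PPARα. RefSeq windows on GRCm38.p6, from 250 bases before to 50 after an annotated start, were found for 5 of the 7 members, with 8 windows in all: 1 each for Cd36, Slc27a2 and Slc27a4, 2 for Vldlr and 3 for Slc27a1. They were searched on both strands for the hexamers AGGTCA and GGGTCA, and for any 2 of these, alike or not, in direct repeat with 1 base between, a motif that contains the hexamers. A hexamer was present in 3 of the 8 windows, against 27.5% of the 32851 windows of the table. None of the 8 held a direct repeat, which 0.128% of all windows did. The windows with a match are those of Cd36 (chr5:17835847-17836146, minus strand), Slc27a1 (chr8:71569347-71569646, plus strand) and Slc27a2 (chr2:126552774-126553073, plus strand), printed 5′ to 3′ in the direction of transcription with the hexamers in capitals.
Cd36: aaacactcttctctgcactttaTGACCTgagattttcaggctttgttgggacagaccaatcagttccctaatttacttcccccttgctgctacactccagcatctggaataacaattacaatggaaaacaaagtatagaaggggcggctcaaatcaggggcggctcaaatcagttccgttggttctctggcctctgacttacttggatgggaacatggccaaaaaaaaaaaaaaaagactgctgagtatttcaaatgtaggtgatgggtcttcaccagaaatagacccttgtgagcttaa
Slc27a1: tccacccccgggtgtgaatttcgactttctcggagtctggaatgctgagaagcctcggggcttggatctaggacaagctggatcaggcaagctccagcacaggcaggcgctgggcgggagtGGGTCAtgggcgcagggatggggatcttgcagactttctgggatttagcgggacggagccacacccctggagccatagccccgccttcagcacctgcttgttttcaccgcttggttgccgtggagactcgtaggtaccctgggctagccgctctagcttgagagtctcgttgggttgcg
Slc27a2: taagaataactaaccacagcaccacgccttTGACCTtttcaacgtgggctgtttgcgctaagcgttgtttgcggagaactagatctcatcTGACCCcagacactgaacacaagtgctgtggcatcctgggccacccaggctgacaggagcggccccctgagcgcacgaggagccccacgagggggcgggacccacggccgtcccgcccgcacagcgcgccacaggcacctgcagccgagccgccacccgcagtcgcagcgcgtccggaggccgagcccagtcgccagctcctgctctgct
In Cd36 the match is to AGGTCA on the strand opposite to the printed one. In Slc27a1 it is to GGGTCA as printed. The Slc27a2 window holds AGGTCA and GGGTCA, both on the opposite strand. These are letters in a short window only, and neither the windows with matches nor those without show whether a factor binds there.

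On fenofibrate, 6 of the 7 genes were called higher than in controls and 1, Slc27a5, was called lower. Of all genes tested, 22% were called higher and 18.9% lower. The rises of Vldlr, Cd36 and Lpl ranked 7, 25 and 26 by size among the 9005 genes, those of Slc27a4 and Slc27a2 ranked 155 and 3813, and the fall of Slc27a5 ranked 4857. In 6 of the 7 genes the lowest fenofibrate liver lay above the highest control liver, whereas such a separation upward was seen in 3.58% of all genes. Slc27a1 passed the filter only because of its fenofibrate arrays (no control and 4 fish oil arrays reached 4), so that it had to differ to be tested, its call adds nothing to these counts and no rank is given for it. The median difference over the 7 genes was 3.29, over the 6 without Slc27a1 it was 2.29, and over all genes it was -0.0016. On fish oil 3 of the 7, Lpl, Slc27a1 and Slc27a2, were called higher than in controls, against 7.53% of all genes called higher and 7% called lower. The other 4 did not pass. The fish oil call of Slc27a1 used values mostly under 4 and was lost with values under 4 set to 4. All 7 had an unadjusted p under 0.05, as did 2416 of the 9005 genes tested. Slc27a5 had a lower and the other 6 a higher mean on fish oil, and each gene's fish oil range overlapped its control range. Both comparisons use the same control arrays.

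**Figure D1:**
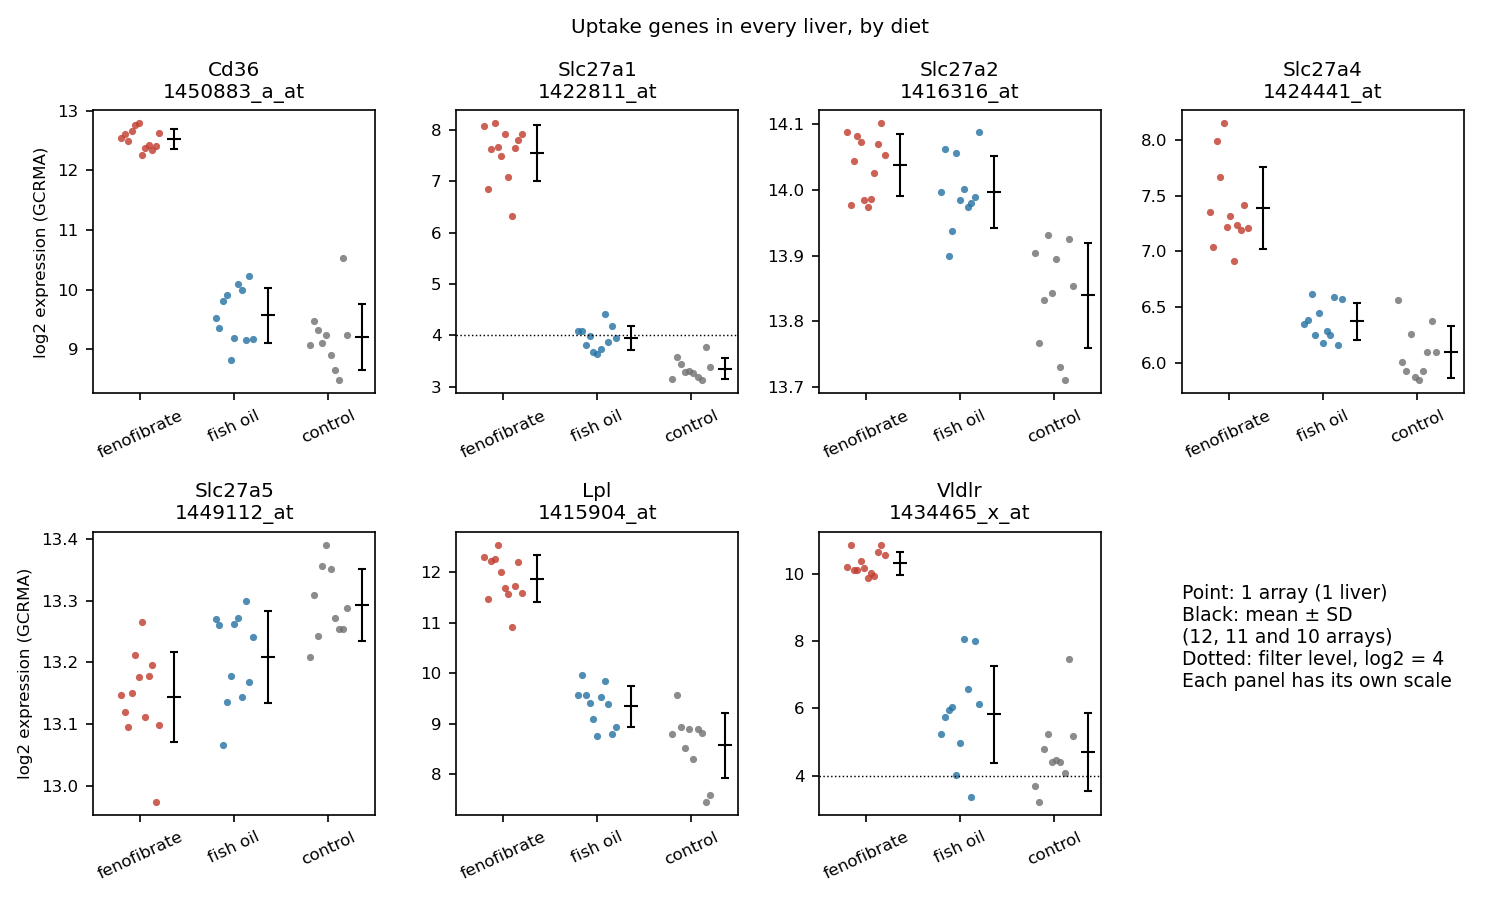
Log2 expression of the 7 uptake genes (vertical axis, a scale of its own in each panel) in every liver on fenofibrate, fish oil and control diet, 1 point per array, with the mean ± SD in black and the filter level of 4 dotted. Fenofibrate livers lie apart from controls in all panels but that of Slc27a5, and control replicate 9 is the high control in the Cd36 and Vldlr panels.

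Cd36, the fatty acid translocase, was higher in every fenofibrate liver than in any other liver. On probe set 1450883_a_at the lowest, median and highest values were 12.26, 12.52 and 12.79 on fenofibrate, 8.83, 9.52 and 10.23 on fish oil, and 8.48, 9.17 and 10.53 on the control diet. Fenofibrate livers were also close to each other: their SD was 0.17 (n = 12), against 0.46 on fish oil (n = 11) and 0.56 in controls (n = 10). The difference between fenofibrate and control was 3.32 ± 0.17, or 9.99-fold (limma adjusted p = 1.33e-16). Fish oil and control livers overlapped, with 9 of 11 fish oil livers above the control median and none above the highest control, which was replicate 9. Fish oil differed from control by 0.36 ± 0.18 and did not pass the test (adjusted p = 0.176). Without control replicate 9 the difference was 0.51 and passed (adjusted p = 0.0150), and without control replicates 1, 2 and 9 it was 0.57 (adjusted p = 0.0106). Fenofibrate exceeded fish oil by 2.96 ± 0.17 (adjusted p = 9.36e-16).

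The other Cd36 probe sets gave the same order of fenofibrate over the rest. Probe set 1423166_at averaged 11.43 ± 0.20 (SD) on fenofibrate, 8.29 ± 0.47 on fish oil and 7.94 ± 0.60 in controls, with a fenofibrate difference from control of 3.49 ± 0.18. Probe set 1450884_at, the dimmest of the 3, averaged 8.86 ± 0.23 on fenofibrate, 3.98 ± 0.48 on fish oil and 3.91 ± 0.78 in controls, a difference of 4.96 ± 0.22. In the fish oil comparison they differed from control by 0.35 ± 0.19 and 0.08 ± 0.22 (adjusted p = 0.246 and 0.873 over the 17162 probe sets past the filter). Deviations from the diet means of the 3 probe sets correlated at 0.89 to 0.97 over the 33 arrays, which share the labelled RNA of a liver.

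Slc27a1 (FATP1), known mainly from muscle and fat, was mostly below the filter level of 4 except on fenofibrate. Probe set 1422811_at had a lowest, median and highest value of 6.32, 7.67 and 8.13 on fenofibrate, 3.64, 3.94 and 4.41 on fish oil, and 3.12, 3.29 and 3.78 in controls. No value of another diet came within 1.91 of the lowest fenofibrate liver. The fenofibrate difference from control was 4.20 ± 0.15 (18.4-fold, adjusted p = 9.09e-21). With values under 4 set to 4 it was 3.55. Fish oil was called higher than control by 0.60 ± 0.16 (adjusted p = 0.00802), with all 11 fish oil livers above the control median and 8 above the highest control. That call was lost with values under 4 set to 4 (difference 0.07, adjusted p = 0.807). It was also lost on the gene's other probe set, 1435658_at (0.37 ± 0.20, adjusted p = 0.255 over the probe sets), which averaged 6.95 ± 0.71 (SD) on fenofibrate, 3.06 ± 0.26 on fish oil and 2.69 ± 0.26 in controls. Within the fish oil and control arrays the 2 probe sets correlated at 0.05 and 0.26, and within fenofibrate arrays at 0.67.

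Slc27a4 (FATP4), a widely expressed acyl-CoA synthetase of this family, changed less. Its single probe set 1424441_at had a lowest, median and highest value of 6.91, 7.28 and 8.15 on fenofibrate, 6.16, 6.35 and 6.62 on fish oil, and 5.84, 6.05 and 6.56 in controls. Every fenofibrate liver lay above every other liver, by at least 0.29. Fenofibrate exceeded control by 1.30 ± 0.11 (2.46-fold, adjusted p = 4.84e-11) and fish oil by 1.02 ± 0.11 (adjusted p = 5.53e-09). All 11 fish oil livers were above the control median, but the difference of 0.28 ± 0.12 did not pass (adjusted p = 0.115). It passed with array weights (adjusted p = 0.0303), with the arrays of those 2 diets alone (adjusted p = 0.0407) and without control replicates 1, 2 and 9 (0.37, adjusted p = 0.0392).

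Slc27a2 and Slc27a5, the members of the family that mark hepatocytes, moved little and in opposite directions. Slc27a2 (FATP2), which activates very long chain fatty acids, had a lowest, median and highest value of 13.97, 14.05 and 14.10 on fenofibrate, 13.90, 13.99 and 14.09 on fish oil, and 13.71, 13.85 and 13.93 in controls. Both treated groups were above control: all 12 fenofibrate livers and 10 of 11 fish oil livers exceeded the highest control. Fenofibrate was higher than control by 0.20 ± 0.03 (1.15-fold, adjusted p = 1.17e-05) and fish oil by 0.16 ± 0.03 (1.12-fold, adjusted p = 0.00127). Fenofibrate and fish oil overlapped, and their difference of 0.04 ± 0.03 did not pass (adjusted p = 0.332, 95% interval -0.03 to 0.11).

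Slc27a5 (FATP5), also named bile acyl-CoA synthetase, had a lowest, median and highest value of 12.97, 13.15 and 13.27 on fenofibrate, 13.07, 13.24 and 13.30 on fish oil, and 13.21, 13.28 and 13.39 in controls. The 3 diets overlapped, although all 12 fenofibrate livers lay below the control median. On fenofibrate it fell by 0.15 ± 0.04 relative to control (adjusted p = 0.00113). On fish oil the difference from control was -0.08 ± 0.04 and did not pass (adjusted p = 0.129; with array weights adjusted p = 0.0315). Fenofibrate differed from fish oil by -0.07 ± 0.04 (adjusted p = 0.144, 95% interval -0.14 to 0.01).

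Lipoprotein lipase is made by the cells around the capillary and acts on its wall. Probe set 1415904_at of Lpl had a lowest, median and highest value of 10.91, 11.86 and 12.54 on fenofibrate, 8.75, 9.40 and 9.96 on fish oil, and 7.46, 8.80 and 9.56 in controls. The lowest fenofibrate liver was 1.35 above the highest control and 0.96 above the highest fish oil liver. Fenofibrate exceeded control by 3.29 ± 0.21 (9.79-fold, adjusted p = 2.18e-14) and fish oil by 2.52 ± 0.20 (5.74-fold, adjusted p = 5.7e-12). Fish oil and control overlapped, with 9 of 11 fish oil livers above the control median and 3 above the highest control. The fish oil rise of 0.77 ± 0.21 (1.71-fold) was called (adjusted p = 0.0118), and was called in all 13 alternative settings and without each of the 33 arrays in turn, with adjusted p at most 0.0298.

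The second Lpl probe set, 1431056_a_at, averaged 10.31 ± 0.59 (SD) on fenofibrate, 7.50 ± 0.38 on fish oil and 6.49 ± 0.69 in controls. Its differences from control were 3.82 ± 0.23 on fenofibrate and 1.01 ± 0.24 on fish oil (adjusted p = 1.04e-14 and 0.00375 over the probe sets). All 11 fish oil livers were above its control median and 8 were above its highest control. Deviations of both Lpl probe sets correlated at 0.93 over the 33 arrays. Among the uptake genes with more than 1 probe set, Lpl alone thus had a fish oil difference called on more than 1 of them. The fish oil rise of Slc27a2, which has a single probe set, was called in all 13 alternative settings. It was also called without each of the 33 arrays in turn (limma adjusted p at most 0.00895 over all of these).

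Vldlr, whose product binds triglyceride-rich particles that carry apolipoprotein E, had the largest fenofibrate difference of the 7 genes. Probe set 1434465_x_at had a lowest, median and highest value of 9.86, 10.20 and 10.87 on fenofibrate, 3.36, 5.95 and 8.06 on fish oil, and 3.22, 4.44 and 7.47 in controls. Fenofibrate livers lay within 1.01 of each other, while fish oil livers spread over 4.70 and controls over 4.25. The lowest fenofibrate liver was 1.80 above the highest fish oil liver. Fenofibrate exceeded control by 5.62 ± 0.44 (49.1-fold, adjusted p = 2.44e-12), and fish oil by 4.49 ± 0.42 (adjusted p = 2.48e-10). Some fish oil and control values lay below 4, and with those set to 4 the difference between fenofibrate and control was 5.51.

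In the fish oil comparison Vldlr differed from control by 1.13 ± 0.44 and did not pass (adjusted p = 0.0865), with 9 of 11 livers above the control median and 2 above the highest control. The call depended on single arrays. Without control replicate 9, the highest control, the difference was 1.44 (adjusted p = 0.0134), without fish oil replicate 9, the lowest fish oil liver, it was 1.37 (adjusted p = 0.0200), and without fish oil replicate 5 it was 1.31 (adjusted p = 0.0424). Fish oil replicate 9 and some fenofibrate arrays, but no control, have an A in their label. Without all of these arrays the limma adjusted p was 0.0295. Over all alternatives the adjusted p ran from 0.00976 to 0.187.

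All 6 Vldlr probe sets had every fenofibrate liver above every control and every fish oil liver, which was so of 1.22% and 1.42% of all 45037 probe sets, but the size of the difference ran from 1.25 to 5.62. For 1442169_at and 1451156_s_at the lowest fenofibrate values were 3.11 and 3.14, under 4, where values have no firm order. Their smallest gaps were 0.04 (to fish oil) and 0.23 (to control), so no separation is read from these 2. In the name of an Affymetrix probe set the ending _x_at marks probes that can bind other transcripts, _s_at marks probes shared between transcripts, and _a_at marks probes shared by transcripts of 1 gene. Probe set 1417900_a_at averaged 9.65 ± 0.36 (SD) on fenofibrate, 5.24 ± 1.05 on fish oil and 4.39 ± 0.87 in controls, a fenofibrate difference from control of 5.25 ± 0.33. Its deviations followed those of 1434465_x_at at 0.93 over the arrays.

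The 4 other Vldlr probe sets were dim outside fenofibrate. Probe set 1435893_at averaged 6.70 ± 0.43 on fenofibrate, 3.15 ± 0.44 on fish oil and 2.97 ± 0.31 in controls (fenofibrate difference from control 3.73 ± 0.16). Probe set 1438258_at averaged 5.57 ± 0.85 on fenofibrate, 2.54 ± 0.28 on fish oil and 2.29 ± 0.26 in controls (3.28 ± 0.23). Both passed the filter through fenofibrate arrays alone, as did the second Slc27a1 probe set. The remaining pair, 1442169_at and 1451156_s_at, reached 4 in 9 and 5 arrays, all on fenofibrate, and did not pass the filter. In a fit of all 45037 probe sets with no filter they differed between fenofibrate and control by 2.23 ± 0.19 and 1.25 ± 0.13 (adjusted p = 3.94e-11 and 1.98e-09), in a fit that called 8.31% of all probe sets higher. None of the 6 was called by limma on fish oil, in either fit, with 2 of them at an unadjusted p under 0.05.

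**Figure D2:**
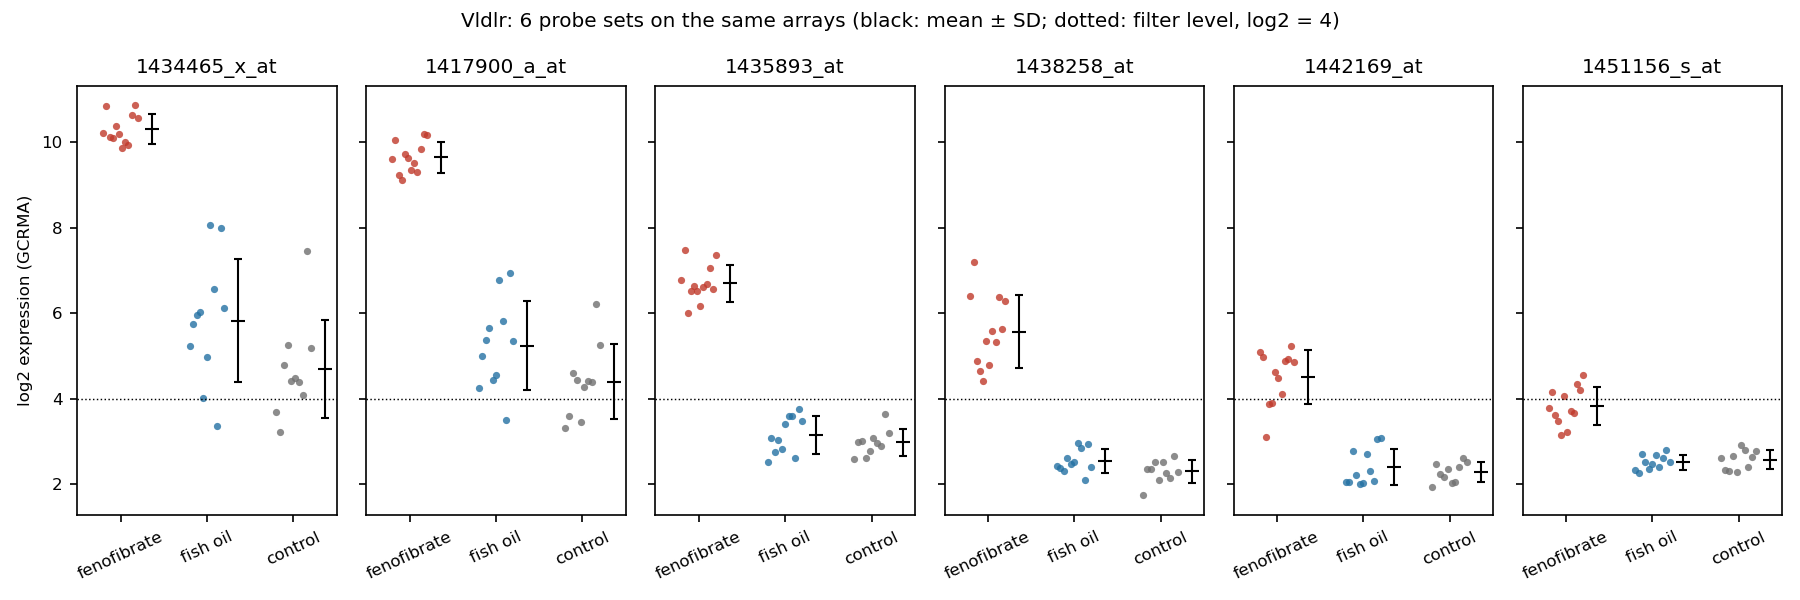
Log2 expression of the 6 Vldlr probe sets (1 panel each, common vertical axis) in every liver on fenofibrate, fish oil and control diet, with the mean ± SD in black and the filter level of 4 dotted. Fenofibrate livers are the highest in each panel, and the 2 probe sets with the brightest fenofibrate values are also those whose fish oil and control values spread most.

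Counted by probe set, 13 of the 14 past the filter were called higher on fenofibrate than in controls and 1 lower, with 19.6% and 17% of all 17162 probe sets called in each direction. For 5 of the 14 fewer than 10 arrays outside fenofibrate reached 4, so these were tested because they were high on fenofibrate. On fish oil 4 of the 14 were called higher than in controls (both of Lpl, 1 of Slc27a1 and that of Slc27a2), against 6.23% of all probe sets. Between fenofibrate and fish oil 12 were called, all higher on fenofibrate, against 17.4% of all probe sets, and 5 of the 7 genes were called (19.8% of all genes), which left Slc27a2 and Slc27a5. In each of the 5 the fenofibrate range lay wholly above the fish oil range, as in 4.09% of all genes. Slc27a1 is among the 5 and passed the filter only because of its fenofibrate arrays, so its call and separation add nothing to these counts.

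**Figure D3:**
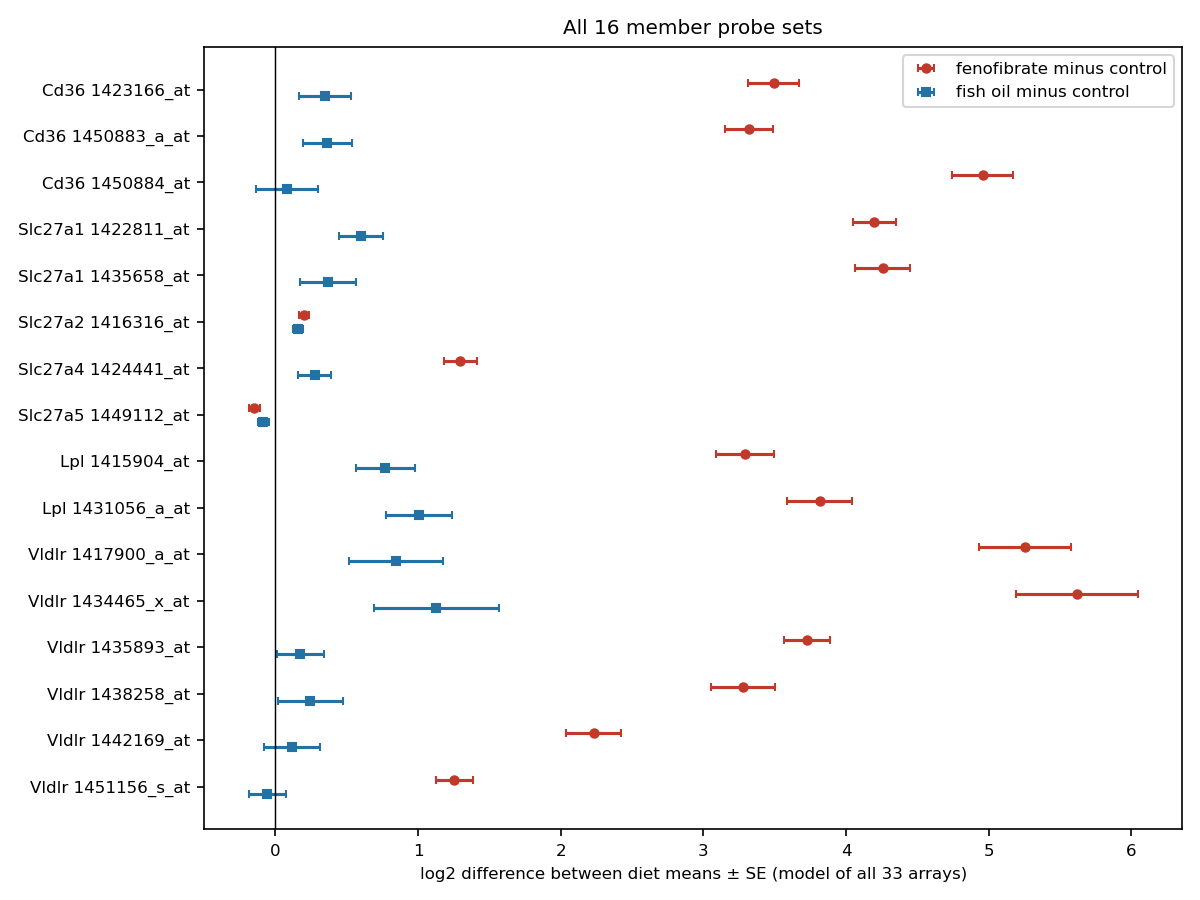
Log2 difference between diet means ± SE (horizontal axis) for each of the 16 probe sets (vertical axis), for fenofibrate minus control (red circles) and fish oil minus control (blue squares), from the fit of all 33 arrays without a filter. Fenofibrate differences run from -0.15 for Slc27a5 to 5.62 for Vldlr, and fish oil differences from -0.08 to 1.13; both use the same controls.

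Animals of 1 diet also differed from each other, and pairs of genes were compared within each diet (21 pairs in 3 diets, 63 correlations, permutation p with 100000 resamples, two-sided). The permutations treat all arrays of a diet as independent, although the mice were housed in pairs. After adjustment over the 63, 3 passed. For 1 of these, Cd36 with Slc27a1 in controls (r = 0.93), all 10 Slc27a1 values lay between 3.12 and 3.78, below the level of 4 under which values have no firm order. With the other Slc27a1 probe set, also below 4 in every control, r was 0.46, and no relation is read from this pair.

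In fish oil livers Cd36 and Vldlr were correlated at Pearson's r = 0.84 (n = 11, permutation p = 0.00071, adjusted p = 0.0224; Spearman's rho = 0.84, permutation p = 0.00232, adjusted p = 0.0680), and r was 0.75 without the 2 farthest arrays. Vldlr lay below 4 in 1 of the 11 livers, and over all combinations of the probe sets r ran from 0.34 to 0.84. Lpl and Vldlr ran in opposite directions in controls, 2 of which had Vldlr below 4 (n = 10, r = -0.83, permutation p = 0.00184, adjusted p = 0.0386; rho = -0.66, permutation p = 0.0446, adjusted p = 0.401). Over all combinations of the Lpl and Vldlr probe sets r in controls ran from -0.83 to -0.04. On the probe sets that stood for the 2 genes, the relation was weaker without the 2 controls farthest from the Lpl median (r = -0.68). It was also weaker without control replicates 1, 2 and 9 (n = 7, r = -0.59, exact permutation p = 0.147). Control replicates 9 and 10, whose array numbers are consecutive, had the lowest control Lpl values (7.46 and 7.60), with Vldlr at 7.47 and 5.18. Control replicates 1 and 2, also consecutive, had the lowest control Vldlr values (3.69 and 3.22). No pair passed in fenofibrate livers, where the highest r was 0.75, between Lpl and Slc27a1 (n = 12, permutation p = 0.00424, adjusted p = 0.0668; rho = 0.64, permutation p = 0.0302, adjusted p = 0.317). With the 2 farthest arrays of each relation left out, none of the 63 passed after adjustment. The labels name no batch, and consecutive array numbers form groups of at most 2 arrays, too few for a correlation of 2 genes within them. Over all genes, the deviations from the diet means of 2 such arrays correlated at a median of 0.14 (16 pairs of arrays, range -0.17 to 0.42). Other arrays of the same diet correlated at a median of -0.13 (150 pairs of arrays).

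**Figure D4:**
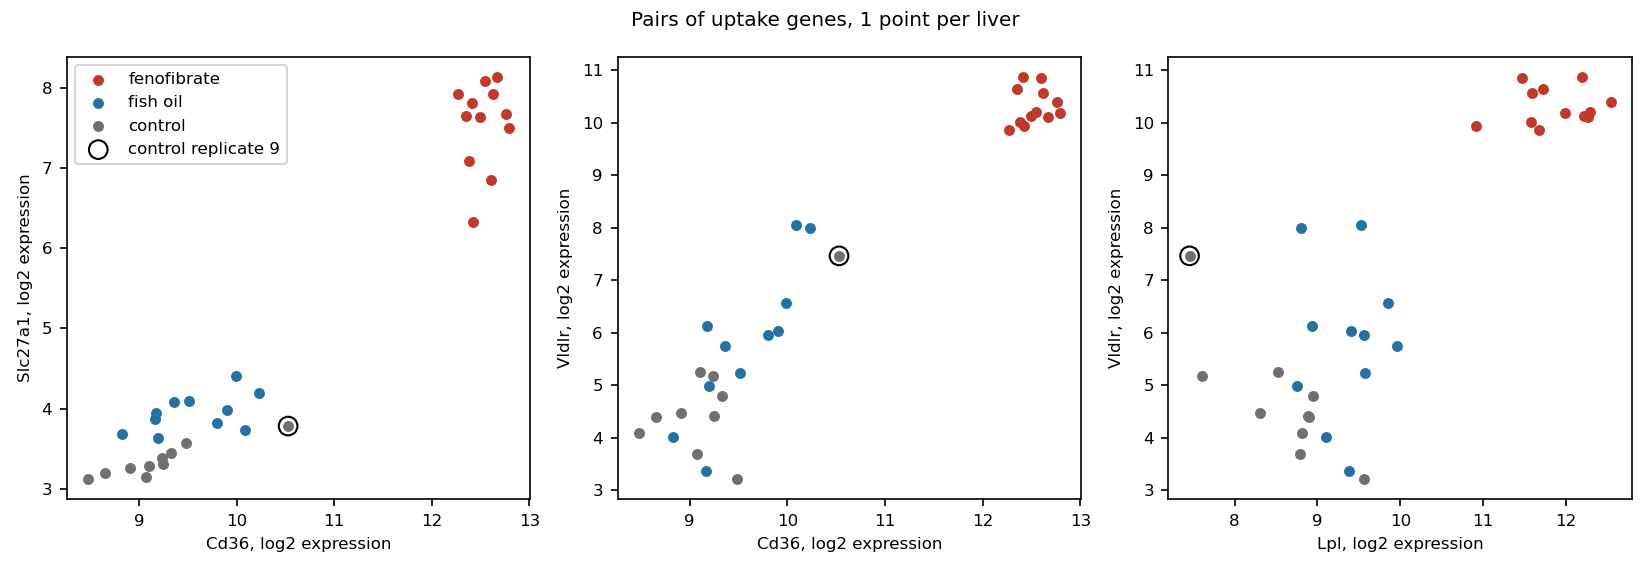
Log2 expression of Slc27a1 against Cd36, of Vldlr against Cd36 and of Vldlr against Lpl, 1 point per liver, coloured by diet, with control replicate 9 circled. Fenofibrate livers form a separate cloud in each panel, and control replicate 9 combines the highest Cd36 and Vldlr of the controls with their lowest Lpl.

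Over all 33 arrays the genes with patterns most like Cd36 were Mogat1 (r = 0.97), Cox6b2 (r = 0.96) and Pgam1 (r = 0.96). This measure includes the step between fenofibrate and the other diets. For Slc27a1 they were Mogat1, Cox6b2 (both r = 0.98) and Apmap (r = 0.96), and for Lpl Cox6b2 (r = 0.94), Apmap and Hspe1 (both r = 0.93). Vldlr was most like Bhlhb9 (r = 0.96), Cyp2b9 and Rtn4 (both r = 0.96), and Slc27a4 most like Acot8, Slc16a13 and Serinc2 (r = 0.93 each). The hepatocyte members had other neighbours. Slc27a2 was most like Cpt2 (r = 0.88), Vnn1 and Retsat (r = 0.86 each), and Slc27a5 most like Mgat1 (r = 0.82), F10 (r = 0.82) and F2 (r = 0.81), where F10 and F2 encode clotting factors.

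With the diet means removed, the closest genes changed. For Lpl they were Clic1, Abca1 and Oga (r = 0.80, 0.78 and 0.73), where Abca1 exports cholesterol from cells. For Vldlr they were Cyp2b9, Mgst3 and Nnt (r = 0.83, 0.79 and 0.79), and 0.77, 0.74 and 0.72 without control replicate 9. For Cd36 they were Cadm1, Cyp2b9 and Bhlhb9 (r = 0.73, 0.73 and 0.70), which fell to 0.60, 0.54 and 0.51 without that array. Slc27a5 was closest to Aldh7a1 (0.76), F2 and F7 (0.75 each). Slc27a1, whose values outside fenofibrate are dim, was closest to Aspa, Osbpl3 and Fam136a (0.65, 0.62 and 0.60), Slc27a2 to Mtor, Fam126b and Cpt1a (0.70, 0.70 and 0.68), and Slc27a4 to Ppm1m, Eif3k and Mrpl46 (0.75, 0.74 and 0.73). All of these are descriptions over arrays that share the same RNA for both genes.

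Genes of lipoprotein lipolysis, which include the partners of lipoprotein lipase, were called on fenofibrate at shares near those of all genes. Of 17 measured, 4 were higher and 4 lower on fenofibrate than in controls and 9 did not pass, against 22% and 18.9% of all genes, with a median difference of -0.05. The 4 higher calls were 2 without fenofibrate replicate 3 or 5 or control replicate 2 or 8. Lipa, the lysosomal acid lipase that degrades lipids of particles taken up, rose by 0.41 ± 0.06 (adjusted p = 4.1e-07), and the proprotein convertase Pcsk6 by 0.27 ± 0.06. Gpihbp1, which anchors lipoprotein lipase to the capillary wall, rose by 0.17 ± 0.06 (adjusted p = 0.0335). Apoc3, an inhibitor of the lipase, fell by 0.24 ± 0.04 and Apoa4 fell by 1.22 ± 0.23. On fish oil 2 of the 17 were higher than in controls and 6 lower (7.53% and 7% of all genes), with a median of -0.15. The 2 higher calls were 1 without any single one of fish oil replicates 1, 2, 5, 6, 7 and 9 or of control replicates 1, 7, 8, 9 and 10. Apoc2, the activator of lipoprotein lipase, fell by 0.60 ± 0.06 on fish oil (adjusted p = 1.32e-08), Apoa4 fell by 3.56 ± 0.23, Lipa fell by 0.42 ± 0.06 and Apoa5 fell by 0.27 ± 0.06. Between fenofibrate and fish oil Lipa differed by 0.82 ± 0.05 and Apoc2 by 0.53 ± 0.06, both higher on fenofibrate.

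Another list held lipoprotein and scavenger receptors with their ligands, adaptors, chaperones and regulators. Of its 18 measured genes, 1 was higher (Lrp4) and 6 lower on fenofibrate than in controls, against 22% and 18.9% of all genes, with a median difference of -0.12. The 6 were Lrp1, Scarb1, Scarb2 and Stab2, the adaptor Dab2 and the ligand gene Apob. Scarb1, the HDL receptor, averaged 10.64 ± 0.11 (SD) on fenofibrate, 11.13 ± 0.12 on fish oil and 11.21 ± 0.15 in controls, and fell by 0.58 ± 0.06 on fenofibrate (adjusted p = 5.26e-10). Lrp1, the hepatic receptor for chylomicron remnants, fell by 0.39 ± 0.07, Stab2 fell by 0.29 ± 0.05 and Scarb2 fell by 0.20 ± 0.05. On fish oil 1 was higher and 4 lower (7.53% and 7% of all genes), with Sort1 at 0.44 ± 0.13, Lrp5 at -0.43 ± 0.12, the chaperone gene Lrpap1 at -0.21 ± 0.07 and Stab1 at -0.22 ± 0.08. The 4 lower calls were not firm: they numbered 1 or 2 without any single one of fish oil replicates 1, 2, 3, 4, 5, 8, 10 and 11 or of control replicates 3, 4, 5, 6, 8 and 10. Another 6 listed genes, among them the receptor genes Lrp2 and Lrp8, lay under the filter at no more than 3.77 on any array.

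Several genes that bind or activate fatty acids after entry were called higher on fenofibrate and lower on fish oil than in the same controls. Of 20 measured, 10 were higher and 2 lower on fenofibrate than in controls, against 22% and 18.9% of all genes, with a median difference of 0.25. Fabp3, among the 10, was at most 3.16 on fish oil and 3.13 in controls. It passed the filter through fenofibrate arrays alone, so its call adds nothing to the count. On fish oil 3 were higher and 10 lower, against 7.53% and 7% of all genes, with a median of -0.15. Acsl5, a long-chain acyl-CoA synthetase, averaged 13.33 ± 0.11 (SD) on fenofibrate, 12.14 ± 0.19 on fish oil and 12.70 ± 0.16 in controls. It rose by 0.63 ± 0.07 on fenofibrate and fell by 0.56 ± 0.07 on fish oil (adjusted p = 2.89e-09 and 3.32e-07). Fabp2, a fatty acid binding protein of the intestine, rose by 0.92 ± 0.09 on fenofibrate and fell by 0.76 ± 0.10 on fish oil. Acsl3 rose by 0.80 ± 0.16 and fell by 1.64 ± 0.16, and the acyl-CoA binding protein gene Dbi rose by 0.23 ± 0.03 and fell by 0.12 ± 0.03. Fabp5 and Acss2 fell on fish oil, by 2.60 ± 0.27 and 1.59 ± 0.18, and did not pass on fenofibrate. Acsm1 went the other way, at -0.47 ± 0.06 on fenofibrate and 0.24 ± 0.07 on fish oil. Between fenofibrate and fish oil 11 of the 20 were higher on fenofibrate (19.8% of all genes) and 2 lower, with Fabp2 at 1.68 ± 0.09 and Acsl5 at 1.19 ± 0.07. Fabp3 is among the 11, and its call again adds nothing to the count. Slc27a3 lay under the filter.

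**Figure D5:**
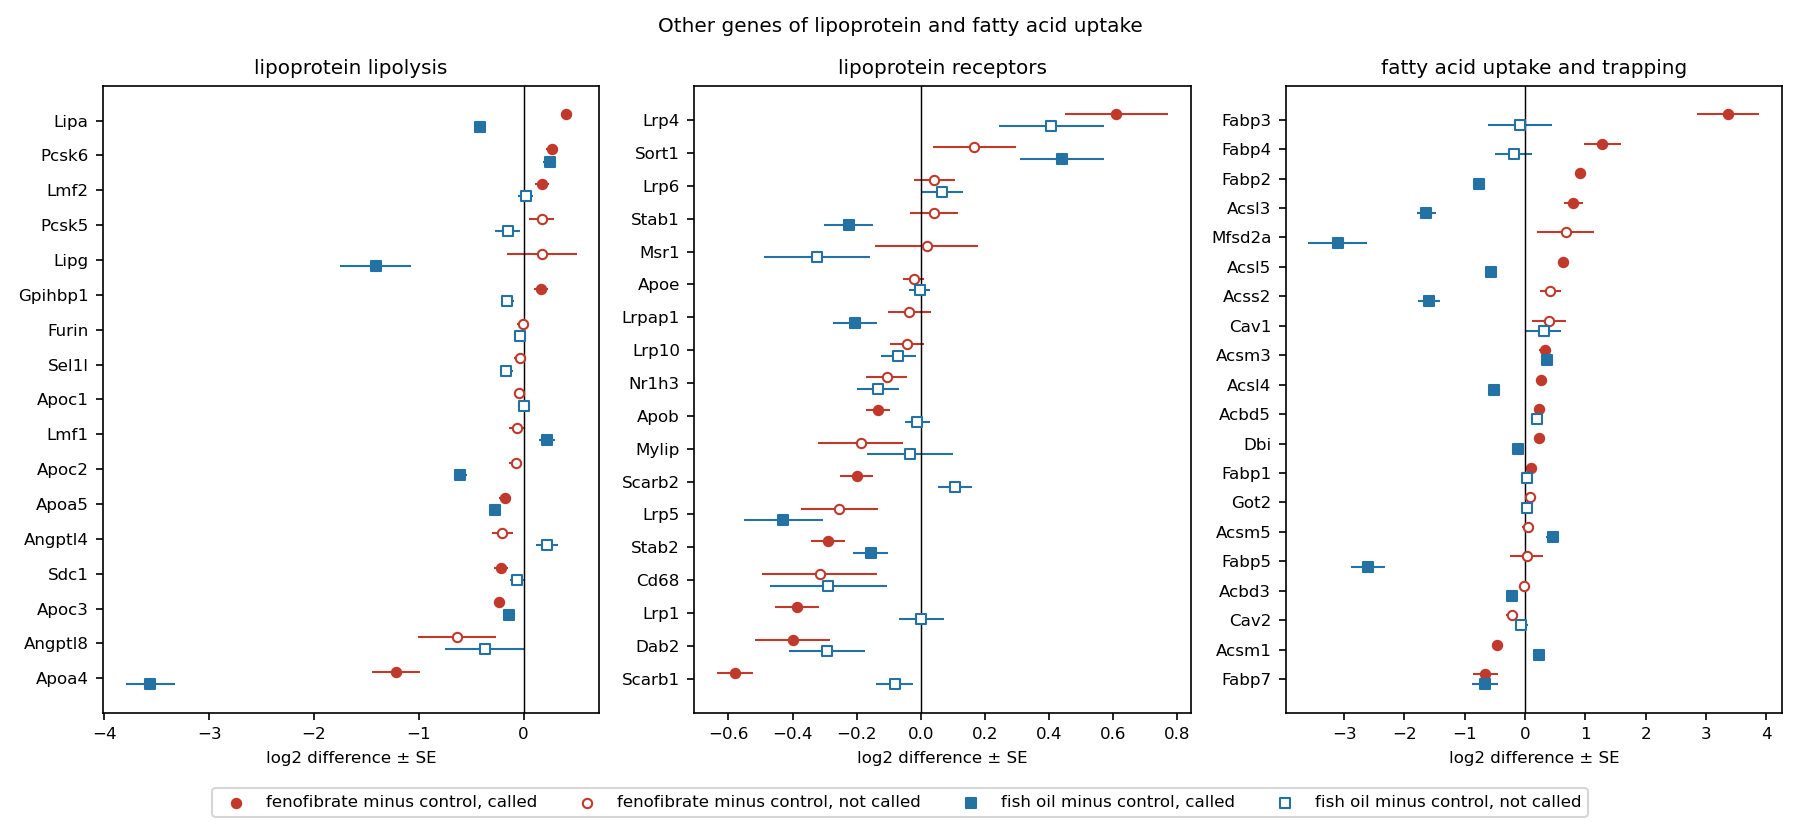
Log2 difference ± SE (horizontal axis) for the measured genes of 3 lists (vertical axis, ordered by the fenofibrate difference), for fenofibrate minus control (red circles) and fish oil minus control (blue squares), filled where called at an adjusted p under 0.05. In the lipolysis list 4 genes were called higher and 4 lower on fenofibrate, in the receptor list 1 higher and 6 lower, and in the fatty acid list 10 higher and 2 lower. Among the 10, Fabp3 passed the filter through fenofibrate arrays alone.

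Cd36, Lpl, Vldlr and Slc27a1 are also active in fat, muscle, macrophages and endothelium, so markers of those cells were read on the same arrays. In whole liver, fewer cells of a type and less RNA per cell cannot be told apart. The defining adipocyte genes Adipoq, Lep and Retn reached at most 2.69, 2.25 and 2.52 on any array, within the dim end of the scale, and all 12 muscle markers lay under the filter, with a highest value of 3.60. Of the 4 adipocyte-list genes measured, Cidec (3.90 ± 0.53), Fabp4 (1.28 ± 0.30) and Lipe (0.77 ± 0.17) were higher and Car3 (-0.56 ± 0.10) lower on fenofibrate than in controls, and none of the 4 was called by limma on fish oil (1 at an unadjusted p under 0.05). Fabp4 also stands in the fatty acid list. Cidec ran from 6.96 to 9.72 on fenofibrate, 3.05 to 4.12 on fish oil and 3.04 to 8.98 in controls. Its mean was 3.57 on fish oil and 4.53 ± 2.17 (SD) in controls. It passed the filter because of its fenofibrate arrays, so its call adds nothing to the count of the list. Cidea, under the filter, had a median of 4.19 and a highest value of 9.83 on fenofibrate, against at most 2.85 on fish oil and 2.73 in controls. The summed linear level of the adipocyte list was 9002 to 18035.5 on fenofibrate, 17857 to 22828 on fish oil and 13582 to 22224 in controls. Car3, the list gene that was lower, made up 68.6% to 94.9% of that sum on fenofibrate, 96.6% to 98.5% on fish oil and 91.0% to 98.5% in controls. These are shares of probe-dependent values and not of RNA. Without Car3 the sum of the other 3 was 762 to 5671 on fenofibrate, 334 to 609 on fish oil and 315 to 1227 in controls.

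Markers of the liver's own macrophages, vessels, stellate cells and hepatocytes are set against the 22% of all genes called higher and the 18.9% called lower on fenofibrate. Of 16 Kupffer cell markers, 3 were called lower on fenofibrate than in controls (Clec4f at -0.43 ± 0.10), a share near the 18.9% of all genes. The other 13 were not called, so that none was higher, against 22% of all genes. Their summed linear level was 9917 to 17608 on fenofibrate, 12630 to 19871 on fish oil and 13069 to 19635 in controls. Of 16 sinusoidal endothelial markers, 1 was higher (Lyve1 at 0.78 ± 0.20) and 8 lower, with sums of 6311 to 7189 on fenofibrate, 6398 to 7373 on fish oil and 6942 to 8463 in controls. Of 11 measured stellate cell markers, 2 were higher and 6 lower (Rgs5 at -0.57 ± 0.06), with sums of 7133 to 8240 on fenofibrate, 8039 to 9654 on fish oil and 8215 to 9685 in controls. Of 11 measured hepatocyte markers 7 were lower and the other 4 were not called, with sums of 184017 to 200049 on fenofibrate, 196565 to 213071 on fish oil and 201830 to 220138 in controls, and Apoa1 averaged 15.19 on fenofibrate, 15.18 on fish oil and 15.32 in controls. The median difference between fenofibrate and control was -0.22 in the Kupffer cell list, against -0.0016 over all genes. It was -0.21, -0.24 and -0.22 in the endothelial, stellate and hepatocyte lists. On fish oil none of the 16 Kupffer cell markers was called by limma, with 1 at an unadjusted p under 0.05. Against 7% of all genes called lower on fish oil, 5 were so in the endothelial list, 1 in the stellate list (Hgf) and 3 in the hepatocyte list (Apoa1, Tat and Cps1). Stab1 and Stab2 stand in both the receptor and the endothelial list, and Cd68 in the receptor and the Kupffer cell list. The part of these shifts in the uptake genes' values was not tested.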

How the data were processed

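The members and all gene lists were chosen with earlier results of these data known. Values are log2 expression per probe set as deposited, made by the authors with GCRMA (version 2.24.1 in the submitters' processing notes). That method models background from probe sequence, so dim values are model-dependent. Per the labels' protocols, 5 µg of RNA with an RNA integrity number above 8 was labelled for each array. The 64 array controls were left out of 45101 probe sets. Of the rest, 34945 had 1 gene in the platform annotation, 932 had several and 9160 had none.

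Tests used limma 3.58.1 (lmFit, contrasts, eBayes; R 4.3.3) with 3 diet means over 33 arrays, two-sided, on 9005 genes, each read from its single-gene probe set with the highest mean among those with log2 of at least 4 in at least 10 arrays. Member probe sets were read from fits over 17162 probe sets past the filter, or over all where they did not pass. Named genes were all member probe sets, in each comparison the 4 or fewer genes per list of lowest adjusted p, and the 3 most correlated genes for each member. A gene picked in one comparison is also given in the others. Scripts were tested on simulated data. Alternatives changed the filter, scaling, floor, probe set, variance model, array weights, blocks and arrays used. Arrays give no read depth, and their number limits the precision. Median array values ran from 2.90 to 2.97, arrays of a diet correlated at 0.968 to 0.995, and no 2 arrays were identical. Cage mates are not identified in the labels. Some listed genes are not reported here.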

Additional observations from a re-analysis of the deposited data

Results flagged for a closer look

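Among the 16 member probe sets, the 10 controls were tested for a single array far from the rest by Dixon's criterion (critical value 0.466; the other diets have more than 10 arrays and were not tested). Chance flags about 1 in 20 groups, and 3 of 16 were flagged, all for control replicate 9 and on probe sets that are not independent of each other. Cd36 read 10.53 in that liver on 1450883_a_at, where the next control was 9.48 (gap over range 0.511), and the other 9 controls averaged 9.06 ± 0.33 (SD). On Cd36 1423166_at it read 9.31, with the next control at 8.26 (0.480). Vldlr read 7.47 on 1434465_x_at, with the next control at 5.25 (0.522), and the other 9 averaged 4.39 ± 0.66. Lpl in the same liver was the lowest of the controls, at 7.46. Every fenofibrate liver still lay above these values for both flagged genes.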

How the results depend on the processing

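The fenofibrate differences of all 7 genes from control, and those of 5 genes from fish oil, kept their direction and call in 13 alternative settings and without each of the 33 arrays in turn. Slc27a1 is among both, and since it passed the filter only because of its fenofibrate arrays, its calls add nothing to these counts. The fenofibrate difference of Slc27a5 had the highest adjusted p of these, 0.00617. The fish oil comparison moved more. Its count of member genes, 3, was 7 with array weights, 5 without control replicates 1, 2 and 9, and 3 to 5 over arrays left out singly, the 5 being without control replicate 9. It was 2 with values under 4 set to 4 or with the probe set of highest interquartile range. Its count of member probe sets, 4, was 10 with array weights, 7 without those 3 controls, 4 to 8 over arrays left out singly, and 3 with values under 4 set to 4. With array weights the differences were 0.52 for Cd36 (adjusted p = 0.0126), 0.31 for Slc27a4, -0.10 for Slc27a5 and 1.27 for Vldlr (adjusted p = 0.00976). Control replicates 1, 2 and 9, which were left out together, had weights of 0.29, 0.38 and 0.43. Fish oil replicate 9 (0.33) and fenofibrate replicate 11 (0.45) had similar weights but were kept in that setting, which removed controls only. All genes changed on fish oil numbered 1308, and 845 with consecutive array numbers as a random block (correlation 0.23). The member pairs that passed numbered 3, and 0 without the 2 farthest arrays. The cause of these changes was not tested.

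With the replicate number as a block, 3574 genes changed on fenofibrate, 1318 on fish oil and 3467 between them, and the member genes called stayed at 7, 3 and 5, each with Slc27a1. The numbers share only a number: samples of the same number on different diets correlated at a median of 0.05 (range -0.21 to 0.35). The 4 genes of the receptor list lower on fish oil numbered 1 with either block or the probe set of highest interquartile range, 2 with no filter, and 1 to 4 over arrays left out singly. The 4 lipolysis genes higher on fenofibrate numbered 2 with no filter, median centring or the random block. Dim values under 4, which hold most Slc27a1 and part of the Vldlr values outside fenofibrate, have no firm order, which limits fold changes of these genes.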
